A study of Mus musculus with 19 samples.

Results

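The comparison set colon stem cells in which Ascl2 had been deleted against resting wild-type colon stem cells of the mouse, and described the difference across all genes. Its members were 5 of the 19 samples of the series, namely the 3 resting and the 2 knockout RNA-seq libraries, chosen by their labels. Resting cells were wild type and carried the Ascl2(mCh) mCherry reporter with the Lgr5Dtr-Egfp+ allele, which joins a diphtheria toxin receptor and green fluorescent protein to Lgr5. Knockout cells were Ascl2Fl/Fl; Lgr5EGFP-Cre+, so that Cre was driven from Lgr5 and deletion starts in cells that use that locus. Tamoxifen (2 mg on each of the first and second days, 1 mg on the third) is described for the knockout only. Both groups came from the colonic epithelium of adult mice of mixed C57BL/6 and 129/Sv background, were sorted on mCherry or GFP, and went through the same low-input cDNA kit; ages and the interval after tamoxifen are not given in the sources used here. Genotype, Lgr5 allele, reporter and tamoxifen differ together between the groups and cannot be told apart. The labels do not say whether replicates came from separate mice. Xist and Ddx3y, sex-linked RNAs given below, differed between the replicates of each group, so these were not repeats of a single mouse. How many mice each library held is not known. P-values measure the spread between these libraries, which need not equal the spread between mice. Another 2 libraries, of crypt cells regenerating after diphtheria toxin, entered the fit to estimate the spread between libraries. They also entered the filter on low counts and the scaling.

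Ascl2 is a basic helix-loop-helix transcription factor. Factors of this class pair with the broadly expressed E proteins (Tcf3, Tcf4, Tcf12) and bind E-boxes, whose letters are CANNTG, while the Id proteins take E proteins out of such pairs. In the crypt base Ascl2 is known as a Wnt-driven factor of the Lgr5-expressing stem cells, alongside R-spondin and Wnt feedback genes, Eph receptors that hold cells at the crypt base, and Notch signalling that keeps cells from the secretory fate.

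All RNA was measured as reads per gene. Levels are given in CPM, reads scaled to a common library total, after TMM scaling, which rescales each library so that most genes keep their level. A gene was called when its adjusted p in edgeR's quasi-likelihood test was under 0.05, and differences are knockout minus resting on the log2 scale with their standard error (SE). Of 24062 genes in the table, 13911 passed the filter on low counts, and 5039 of these were called, which is 36.2%. Rises made up 2618 (18.8% of tested genes) and falls 2421 (17.4%), and 4456 of the called genes differed by at least 2-fold. The knockout libraries lay above every resting library for 29.5% of tested genes and below every one for 28.5%. The median log2 difference of all tested genes was -0.0231.

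**Figure D1:**
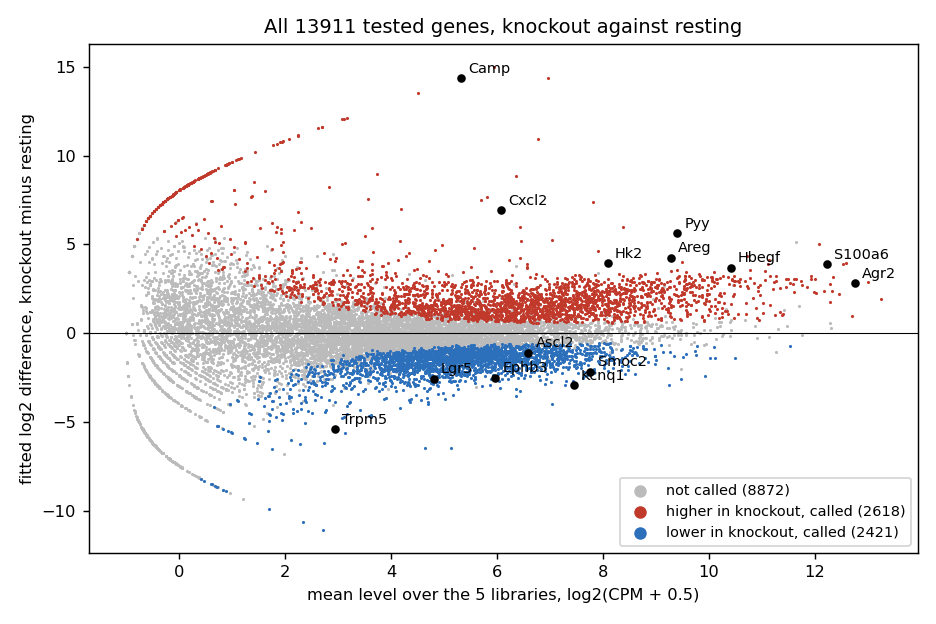
Fitted log2 difference (knockout minus resting) against mean level over the 5 libraries, log2(CPM + 0.5), for all 13911 tested genes; each point is a gene, red points were higher and blue points lower in the knockout (adjusted p under 0.05), grey points were not called. Rises (2618) and falls (2421) are nearly balanced; the outer arcs at low level are genes without a count in 1 group, whose fitted difference depends on the prior count.

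The libraries differed in more than their group. Reads assigned to genes came to 26013572 to 27237804 in the resting and 16553279 and 17926856 in the knockout libraries. The scaling factor was 1.215 to 1.316 in the resting and 0.6161 and 0.6597 in the knockout libraries, and the 100 genes with most reads took 16.56% to 20.49% and 32.85% and 34.58% of the reads. Scaling by library size alone moved the median difference of all genes to -1, called 1233 rises and 5328 falls (18.8% of calls were rises, against 52% with TMM), and gave no called gene the opposite call; with it the log2 differences below are lower by about that shift. Reads that aligned to several places were 39.11% to 40.17% of the resting and 51.17% and 51.44% of the knockout reads. Genes of short genomic span tended to be higher in the knockout: in the shortest of 5 equal classes (up to 7.12 kb) the median log2 difference was 0.98 and 37.4% of genes rose while 8.38% fell, and in the class from 29.7 to 65.2 kb the median was -0.382 with 10.6% and 22.7%. The fall with span did not continue into the longest class (65.3 to 2390 kb), whose median was -0.0237 with 11.3% and 12.7%. With offsets that take out this trend in each library (span offsets), 4474 genes were called, 3998 of them as before and 6 in the opposite direction. Each group held libraries with Xist, an RNA of female cells, and libraries with the Y-linked Ddx3y, and resting replicate 3 had both (18.2 and 12.8 CPM). In knockout replicate 1 Xist was at 50 CPM and Ddx3y at 0.4529 CPM. In knockout replicate 2 they were at 0.09163 and 25.02 CPM. The share of either pattern in the results below was not tested beyond these fits.

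Ascl2 RNA (chromosome 7, 142966822 to 142969264 in GRCm38.p6) was lower in the knockout but was still present. It stood at 109.7, 151 and 104 CPM in the resting and 53.8 and 59.2 CPM in the knockout libraries. The groups did not overlap, and the difference was -1.11 ± 0.27, adjusted p = 0.0115. Which part of the gene was deleted is not given in the sources used here, so reads from outside it would still count and this level does not measure the deletion; which cells the remaining reads came from was not tested. In a sorted bulk sample, fewer cells with a transcript and less of it per cell cannot be told apart, here and below. Lgr5 (chromosome 10, 115450314 to 115587780 in GRCm38.p6), the R-spondin receptor that marks these stem cells and through whose locus both groups were sorted or engineered, was at 41.9, 53.5 and 27.9 CPM in the resting and 3.71 and 10.3 CPM in the knockout libraries. Each knockout library was below every resting one for Lgr5, with a log2 difference of -2.56 ± 0.67, adjusted p = 0.0168. Ascl2 (adjusted p = 0.078) and Lgr5 (adjusted p = 0.11) did not pass without knockout replicate 1, nor did Ascl2 (adjusted p = 0.0544) without knockout replicate 2. Lgr5 differed by -3.47 on the log2 scale without knockout replicate 2 and Ascl2 by -2.30 with span offsets.

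Stem cell genes were mostly lower. Of the 23 tested stem cell genes, 1 rose and 13 fell, with a median log2 difference of -1.11. The falls include Ascl2, the deleted gene itself. The shares of all tested genes were 18.8% for rises and 17.4% for falls, which is the background for this and the counts below. Smoc2, a matricellular protein of the crypt base and a known marker of Lgr5 cells, was at 347, 329 and 264 CPM in the resting and 70.4 and 69.8 CPM in the knockout libraries. The 2 knockout values were nearly equal and lay far under the resting range (-2.16 ± 0.24, adjusted p = 0.000199). Ephb3, a receptor for ephrin-B ligands that keeps cells low in the crypt, went from 100.3, 95.3 and 82.1 CPM to 16.5 and 16.1 CPM (-2.5045 ± 0.24, adjusted p = 0.000109). Cdca7, a Myc-responsive gene, fell the most within the list, from 255, 287 and 175 CPM to 29.9 and 31.98 CPM (7.72-fold lower). Rnf43, the ubiquitin ligase that clears Wnt receptors from the membrane, and Ptpro, a receptor phosphatase, fell 3.01-fold and 3.89-fold. Sox9, a factor of crypt base and secretory cells, was at 210.3, 256 and 324 CPM in the resting and 108 and 113 CPM in the knockout libraries, a 2.38-fold fall. Cd44, a hyaluronan receptor, fell 3.13-fold and Prom1, a membrane protein of crypt cells, 2.93-fold. Cd44 (adjusted p = 0.0727) did not pass without knockout replicate 1, nor did Cd44 (adjusted p = 0.0804) without knockout replicate 2, nor did Prom1 (adjusted p = 0.0594) without resting replicate 3. Prom1 differed by -2.76 on the log2 scale without knockout replicate 1 and by -0.91 without knockout replicate 2.

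Not every crypt base gene moved with them. Phlda1 was the list's single rise, at 86.7, 194 and 124 CPM in the resting and 741 and 695 CPM in the knockout libraries, so that both knockout libraries had more than 3 times the highest resting value (2.41 ± 0.31, adjusted p = 0.000442). Axin2, the Wnt feedback gene most often read as a measure of Wnt output, was at 10.7, 18.6 and 9.01 CPM in the resting and 7.16 and 14.2 CPM in the knockout libraries; the groups overlapped and it was not called (-0.26 ± 0.50, adjusted p = 0.721). Ephb2, the sister receptor of Ephb3, was not called either (-0.46 ± 0.44, adjusted p = 0.459).

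**Figure D2:**
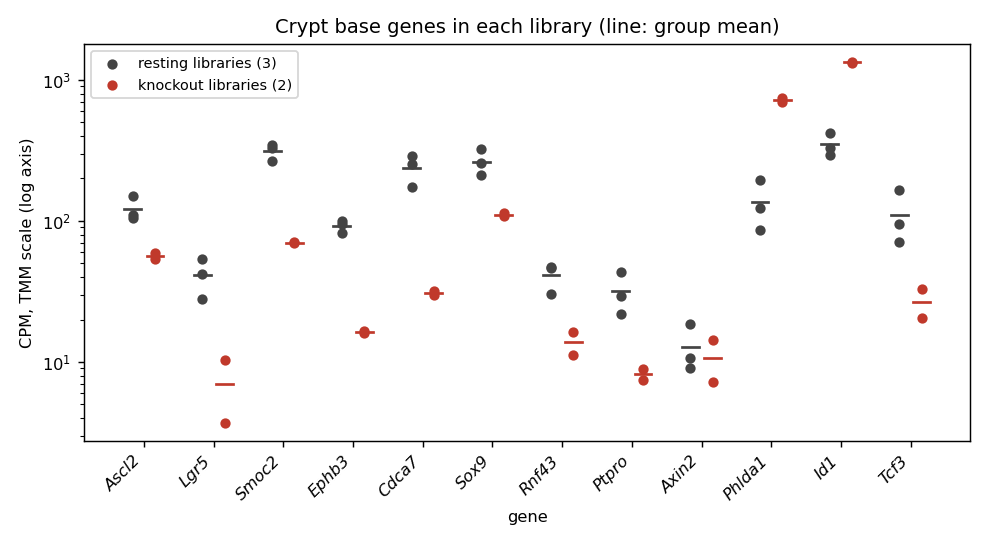
Level of 12 genes in each library, in CPM on a log axis; grey points are the 3 resting and red points the 2 knockout libraries, and short lines are group means. Ascl2, Lgr5, Smoc2, Ephb3, Cdca7, Sox9, Rnf43, Ptpro and Tcf3 have both knockout points below all resting points, Phlda1 and Id1 have them above, and Axin2 overlaps.

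Since Ascl2 acts through E-boxes, promoter sequences of the fallen stem cell genes were read from RefSeq (GRCm38.p6; 250 bases before to 50 after the start). Of the 13 fallen list members 9 had a window in the table, and CAGCTG occurred in 1 of them, that of Ephb3. The windows of Ephb3 (chr16:21204545-21204844, plus strand) and of Ascl2 itself (chr7:142969215-142969514, minus strand) are shown because the first holds the only such match among the fallen genes and the second is the deleted gene's own start. Capitals mark the E-box CAGCTG and the E-box CAGGTG; both strands were searched.
Ephb3: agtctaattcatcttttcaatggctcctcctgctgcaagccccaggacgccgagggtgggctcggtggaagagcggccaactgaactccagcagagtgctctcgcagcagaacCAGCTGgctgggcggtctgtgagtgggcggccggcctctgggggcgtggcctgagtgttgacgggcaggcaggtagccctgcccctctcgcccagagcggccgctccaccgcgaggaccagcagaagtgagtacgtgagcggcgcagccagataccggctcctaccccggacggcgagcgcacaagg
Ascl2: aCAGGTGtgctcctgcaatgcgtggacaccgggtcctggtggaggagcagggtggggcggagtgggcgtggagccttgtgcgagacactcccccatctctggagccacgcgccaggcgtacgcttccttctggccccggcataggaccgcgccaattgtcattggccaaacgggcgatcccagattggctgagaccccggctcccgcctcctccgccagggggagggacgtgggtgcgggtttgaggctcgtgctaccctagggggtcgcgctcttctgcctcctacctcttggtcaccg
The CAGCTG of Ephb3 begins 137 bases upstream of the start, and the CAGGTG of Ascl2 249 bases upstream. These letters are common. A CAGCTG was in 18.1% of the promoters of tested genes, in 15.2% of those of risen and 15.9% of those of fallen genes, and CAGGTG on either strand in 22.1%, 20.7% and 22.9%. Of the 15 tested stem cell genes with a window, called or not, 2 (13.3%) held CAGCTG and 6 (40.0%) held CAGGTG on either strand. A match describes the window only.

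Of the 7 tested genes of E proteins and Id factors, 3 Id genes rose and 1 E protein gene fell (0 and 1 with span offsets). Tcf3, which encodes the E proteins E12 and E47, fell from 95.4, 166 and 70.95 CPM to 33.1 and 20.3 CPM (-2.05 ± 0.39, adjusted p = 0.00368). Tcf12 (-0.54 ± 0.36, adjusted p = 0.283) and Tcf4 (-0.37 ± 0.35, adjusted p = 0.449), the other two E proteins, were not called. Id1, an inhibitor of E proteins and a direct target of BMP signals, was at 331, 295 and 419 CPM in the resting and 1339 and 1322 CPM in the knockout libraries, with both knockout libraries above 3 times every resting one (1.93 ± 0.30, adjusted p = 0.00127). Id2 rose 3.39-fold and Id3 2.75-fold, the latter with the opposite sign under offsets for genomic span. These genes are short (the rises' median span was 1.57 kb against 10.4 kb for all risen genes). Id3 (adjusted p = 0.0761) did not pass without knockout replicate 1. Id1 (adjusted p = 0.796), Id2 (adjusted p = 0.178) and Id3 (adjusted p = 0.813) with offsets for genomic span and Id2 (adjusted p = 0.0596) and Id3 (adjusted p = 0.212) with library size alone did not pass.

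Wnt pathway genes did not move one way. Of the 28 tested Wnt pathway genes, 5 rose and 7 fell (7 and 5 with span offsets), with a median log2 difference of -0.372 (-0.738 without knockout replicate 2); the rises numbered 3 to 6 when 1 library at a time was left out (3 without knockout replicate 2) and the falls numbered 4 to 7 (4 without knockout replicate 2). Among the factors that bind beta-catenin, Tcf7 fell from 19.4, 28.3 and 10.7 CPM to 1.54 and 3.21 CPM (-3.04 ± 0.56, adjusted p = 0.00317), while Tcf7l1, known as a repressor, rose from 38.5, 52.7 and 45.3 CPM to 143 and 271 CPM (2.19 ± 0.28, adjusted p = 0.000475) and Tcf7l2, the main factor of intestinal Wnt signalling, rose 2.35-fold. Ctnnb1, which encodes beta-catenin, fell 2.04-fold. Ccnd2, a cyclin that Wnt signals induce, rose 2.47-fold. Myc, a target of the same pathway, fell from 186, 184 and 117 CPM to 28.8 and 32.6 CPM (-2.40 ± 0.33, adjusted p = 0.000648), and its relative Mycl fell 5.39-fold. Ccnd2 (adjusted p = 0.225) and Tcf7l2 (adjusted p = 0.435) with library size alone did not pass. Tcf7 differed by -3.66 on the log2 scale without knockout replicate 2.

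Some Eph receptors and ephrins, which sort cells along the crypt axis, fell. Of the 15 tested Eph receptors and ephrins, 1 rose and 5 fell, with a median log2 difference of -0.458 (-0.127 without resting replicate 2, -0.88 without knockout replicate 2); the rises numbered 0 to 1 when 1 library at a time was left out (0 without resting replicate 1, resting replicate 3, knockout replicate 1, knockout replicate 2, regenerating replicate 1 or regenerating replicate 2). Beside Ephb3, the receptors Ephb4 and Epha1 fell, from 92.5, 129.7 and 84.3 CPM to 25.5 and 22.3 CPM and from 29.4, 35.01 and 21.4 CPM to 7.43 and 3.94 CPM. Efnb1, a ligand of EphB receptors carried by cells higher in the crypt, fell 2.01-fold. Efnb1 (adjusted p = 0.0981) did not pass without knockout replicate 1.

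A few Notch pathway genes changed. Of the 18 tested Notch pathway genes, 1 rose and 3 fell, with a median log2 difference of -0.806 (-0.457 without resting replicate 2, -0.303 without resting replicate 3, -0.485 without knockout replicate 1, -1.50 without knockout replicate 2, -0.528 with members without reads in a group at their bound); the rises numbered 0 to 1 when 1 library at a time was left out (0 without knockout replicate 1) and the falls numbered 1 to 4 (1 without knockout replicate 1). Fringe enzymes, which glycosylate Notch, made up 2 of the 3 falls. Rfng fell from 45.1, 37.4 and 38.5 CPM to 11.2 and 9.35 CPM (-1.97 ± 0.27, adjusted p = 0.00062) and Lfng 6.85-fold. Nrarp, a feedback target of Notch, fell 3.44-fold, whereas Hes1, the effector that represses secretory fate, rose 1.97-fold, with the opposite sign under library size alone and under offsets for genomic span. Notch1 itself was lower in both knockout libraries than in every resting one without being called (-0.80 ± 0.32, adjusted p = 0.0827). Hes1 (adjusted p = 0.081), Lfng (adjusted p = 0.0514) and Nrarp (adjusted p = 0.0575) did not pass without knockout replicate 1. Hes1 (adjusted p = 0.97) with library size alone and Hes1 (adjusted p = 0.503) with offsets for genomic span did not pass. Lfng differed by -4.19 on the log2 scale without knockout replicate 2, Nrarp by -2.92 with span offsets and Rfng by -2.86 with span offsets.

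Factors that define intestinal epithelium were mostly lower. Of the 18 tested intestinal identity factors, 0 rose and 10 fell, with a median log2 difference of -1.04. Cdx2, a homeobox factor of intestinal identity, fell from 68.9, 60.0 and 54.9 CPM to 20.3 and 6.96 CPM (-2.17 ± 0.43, adjusted p = 0.00431). Its relative Cdx1, far more abundant here, fell from 1381, 1486 and 1251 CPM to 526 and 524 CPM (-1.39 ± 0.21, adjusted p = 0.00107). Hnf4a, a nuclear receptor of gut endoderm, fell 2.78-fold. Cdh1, the cadherin of epithelial junctions, was at 505, 489 and 520.1 CPM in the resting and 213 and 245 CPM in the knockout libraries (-1.14 ± 0.19, adjusted p = 0.00208). Epcam, the other marker of epithelium in the list, was not called and was at 2813, 1886 and 2917 CPM in the resting and 3287 and 3299 CPM in the knockout libraries, so it was high in all 5 libraries; with library size alone it fell (-0.60, adjusted p = 0.0469). Cdx2 differed by -3.15 on the log2 scale without knockout replicate 1.

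Secretory transcription factors were more often lower. Of the 12 tested secretory transcription factors, 2 rose and 6 fell, with a median log2 difference of -0.824 (-1.24 with span offsets); the rises numbered 0 to 2 when 1 library at a time was left out (0 without knockout replicate 1) and the falls numbered 2 to 7 (2 without knockout replicate 1). Xbp1, a factor of the secretory apparatus, was at 469, 587 and 409.9 CPM in the resting and 238 and 220.1 CPM in the knockout libraries (-1.09 ± 0.22, adjusted p = 0.00499). Foxa3, a factor of goblet cells, fell 2.02-fold. Klf4, a factor of differentiating colon cells, rose from 74.3, 41.8 and 133 CPM to 307 and 263 CPM. Atoh1, the master factor of the secretory lineage, was at 80.5, 34.5 and 77.7 CPM in the resting and 49.0 and 47.4 CPM in the knockout libraries and was not called (-0.41 ± 0.34, adjusted p = 0.381), and neither was Spdef, which acts below it (-0.38 ± 0.35, adjusted p = 0.437). Foxa3 (adjusted p = 0.0688) and Klf4 (adjusted p = 0.0541) did not pass without knockout replicate 1, nor did Foxa3 (adjusted p = 0.0595) without knockout replicate 2. Klf4 (adjusted p = 0.11) with library size alone did not pass.

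Products of goblet cells were more often higher. Of the 18 tested goblet cell product genes, 6 rose and 2 fell (3 and 4 with library size alone), with a median log2 difference of 1.05 (1.72 without resting replicate 3, 0.495 without knockout replicate 2); the rises numbered 3 to 6 when 1 library at a time was left out (3 without knockout replicate 1) and the falls numbered 1 to 3 (1 without resting replicate 2, resting replicate 3, knockout replicate 1 or knockout replicate 2). Agr2, a disulfide isomerase needed for mucin folding, was at 2278, 1518 and 2343 CPM in the resting and 15785 and 12717 CPM in the knockout libraries, and Spink4, a protease inhibitor of goblet and deep crypt cells, was at 847, 456 and 1428 CPM in the resting and 9023 and 17971 CPM in the knockout libraries. Both knockout libraries exceeded every resting library several times (2.80 ± 0.29, adjusted p = 0.000153 for Agr2, 3.89 ± 0.49, adjusted p = 0.000414 for Spink4). Tff3, the trefoil peptide of goblet cells, rose 11.2-fold. Ern2 and Tmsb10 were the 2 falls. Muc2, the gel-forming mucin, was above the resting libraries without passing (1.44 ± 0.60, adjusted p = 0.0928). Tff3 differed by 4.18 on the log2 scale without resting replicate 3 and by 2.78 with span offsets.

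Genes of deep crypt secretory cells, which neighbour the stem cells of the colon, overlapped this group. Of the 13 tested deep crypt secretory cell genes, 5 rose and 1 fell, with a median log2 difference of 0.116 (2.72 without resting replicate 3, -0.257 without knockout replicate 2); the falls numbered 0 to 1 when 1 library at a time was left out (0 without resting replicate 1, resting replicate 2, resting replicate 3, knockout replicate 1, regenerating replicate 1 or regenerating replicate 2). Reg4, a lectin that marks these cells, was at 342, 344 and 704 CPM in the resting and 1371 and 3145 CPM in the knockout libraries. It rose 4.87-fold, and Ccl6 and Cma1, a chemokine and a chymase of these cells, rose 7.73-fold and 5.30-fold. Agr2 and Spink4, given above as goblet products, were the other rises, and Kit was the single fall. Cma1 and Ccl6 are also transcripts of mast and myeloid cells, whose markers are given below. Cma1 (adjusted p = 0.0862) did not pass without knockout replicate 2. Cma1 (adjusted p = 0.0535) with library size alone and Cma1 (adjusted p = 0.0562) with offsets for genomic span did not pass. Cma1 differed by 3.01 on the log2 scale without resting replicate 3 and Reg4 by 1.56 without knockout replicate 2.

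Some hormone genes rose, while no transcription factor of the endocrine lineage was called. Of the 19 tested enteroendocrine products, 6 rose and 0 fell, with a median log2 difference of 1.49 (2.51 without resting replicate 1, 2.92 without resting replicate 3, 0.89 without knockout replicate 2); the falls numbered 0 to 1 when 1 library at a time was left out (1 without resting replicate 2). Pyy, peptide YY of colonic L cells, was at 40.7, 30.9 and 28.7 CPM in the resting and 1454 and 1824 CPM in the knockout libraries. That is 48.98-fold higher, the 3 resting values being close together (5.61 ± 0.56, adjusted p = 0.000135). Insl5, the other hormone of distal L cells, went from 8.04, 3.13 and 6.22 CPM to 157 and 259 CPM, and Gcg, which encodes proglucagon, from 30.7, 4.03 and 15.9 CPM to 108 and 225 CPM. Of the 13 tested transcription factors of the endocrine lineage, none was called by edgeR, none had an unadjusted p under 0.05 and none was called by DESeq2. Neurog3, which starts that lineage, was at 5.99, 5.73 and 6.41 CPM in the resting and 3.99 and 3.12 CPM in the knockout libraries (-0.77 ± 0.58, adjusted p = 0.345). Gcg (adjusted p = 0.0507) did not pass without resting replicate 3, nor did Gcg (adjusted p = 0.101) without knockout replicate 2. Gcg differed by 4.07 on the log2 scale without resting replicate 1 and Pyy by 3.78 with span offsets.

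Several tuft cell genes fell in the knockout. Of the 15 tested tuft cell genes, 0 rose and 5 fell, with a median log2 difference of -3.13; the falls numbered 3 to 5 when 1 library at a time was left out (3 without knockout replicate 1 or knockout replicate 2). Pou2f3, the factor that defines tuft cells, was at 0.44, 6.28 and 6.88 CPM in the resting libraries and had no read in either knockout library, which is at least 32.8-fold lower when the group without reads is set to 3 counts. Trpm5, the taste channel of these cells, fell from 9.01, 17.8 and 8.61 CPM to 0.0906 and 0.458 CPM, and Avil, an actin-binding protein of their tuft, from 19.7, 6.87 and 11.7 CPM to 0.543 and 0.367 CPM. The summed level of the tested members was 90.65 to 148.1 CPM in the resting and 22.19 and 29.69 CPM in the knockout libraries. Pou2f3 (adjusted p = 0.0862) did not pass without knockout replicate 1, nor did Pou2f3 (adjusted p = 0.082) without knockout replicate 2. Trpm5 differed by -4.69 on the log2 scale without knockout replicate 1 and by -6.96 without knockout replicate 2.

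Some enzymes that build and fold secreted proteins fell, and some stress factors rose. Of the 26 tested mucin O-glycosylation genes, 1 rose and 8 fell, with a median log2 difference of -0.678 (-0.356 with span offsets); the falls numbered 5 to 9 when 1 library at a time was left out (5 without knockout replicate 1). B3gnt3, which extends core O-glycans, fell from 296, 285 and 241 CPM to 71.8 and 68.9 CPM (-1.96 ± 0.22, adjusted p = 0.000236), and Galnt1, which starts them, 2.73-fold. St6galnac1, the sialyltransferase that caps mucin glycans, was the single rise, from 0, 0.555 and 1.16 CPM to 8.695 and 30.7 CPM. Of the 28 tested genes of protein folding and stress in the endoplasmic reticulum, 3 rose and 9 fell, with a median log2 difference of -0.501; the rises numbered 3 to 5 when 1 library at a time was left out (5 without resting replicate 2). P4hb, a disulfide isomerase, fell from 877, 892 and 804 CPM to 239 and 194 CPM. Pdia4, of the same family, went from 305, 361 and 217 CPM to 48.6 and 52.9 CPM, and the falls came to 3.96-fold and 5.799-fold. Ddit3, the stress factor also called CHOP, went the other way, from 13.6, 19.0 and 17.5 CPM to 178 and 242 CPM (3.65 ± 0.26, adjusted p = 5.42e-05), with Manf, a secreted stress response protein, 3.699-fold higher. St6galnac1 differed by 6.12 on the log2 scale without resting replicate 3, by 5.73 without knockout replicate 1, by 3.92 without knockout replicate 2 and Manf by 0.92 with span offsets.

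Colonocyte genes divided by function. Of the 26 tested colonocyte ion and water transport genes, 3 rose and 8 fell, with a median log2 difference of 0.0705 (-0.416 without knockout replicate 1); the falls numbered 4 to 8 when 1 library at a time was left out (4 without knockout replicate 1). Kcnq1, a potassium channel of crypt cells, was at 232, 346 and 224 CPM in the resting and 34.7 and 34.6 CPM in the knockout libraries. It fell 7.71-fold (-2.95 ± 0.27, adjusted p = 8.85e-05) and was among the 10 falls with the smallest adjusted p. Slc16a1, the butyrate and lactate transporter, and Clca4, a chloride channel regulator, fell 2.97-fold and 2.404-fold, while the carbonic anhydrase Car2 rose 2.09-fold. Car2 (adjusted p = 0.759) with library size alone did not pass.

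Brush border genes, which build the microvilli of absorptive cells, were lower or were not called. Of the 25 tested brush border genes, 0 rose and 10 fell (0 and 6 with span offsets), with a median log2 difference of -0.782; the falls numbered 2 to 12 when 1 library at a time was left out (2 without knockout replicate 2). Ush1c, the scaffold of the links between microvilli, was at 173, 192 and 247 CPM in the resting and 86.4 and 68.8 CPM in the knockout libraries (-1.39 ± 0.25, adjusted p = 0.00251). Vil1, the actin bundler villin, and Ezr, which ties the bundle to the membrane, fell 2.06-fold and 1.87-fold. Of the 25 tested lipid handling genes, 7 rose and 3 fell (4 and 12 with library size alone, 4 and 3 with span offsets), with a median log2 difference of 0.584 (0.232 without resting replicate 3, 0.0528 without knockout replicate 1, -0.125 without knockout replicate 2); the rises numbered 3 to 6 when 1 library at a time was left out (3 without knockout replicate 1) and the falls numbered 2 to 5 (5 without resting replicate 1). Acsl5, which activates fatty acids, fell from 253, 124 and 166 CPM to 64.1 and 32.4 CPM (-1.91 ± 0.39, adjusted p = 0.00503). Fabp6, a bile acid binding protein, rose from 10.6, 3.89 and 7.98 CPM to 131 and 70.3 CPM. Ezr (adjusted p = 0.091) and Vil1 (adjusted p = 0.0885) did not pass without knockout replicate 2. Ezr (adjusted p = 0.0727) and Vil1 (adjusted p = 0.06) with offsets for genomic span did not pass. Acsl5 differed by -2.4950 on the log2 scale without knockout replicate 1.

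The guanylin axis split between ligands and receptor. Guca2b, the peptide uroguanylin, was at 44.1, 34.9 and 74.3 CPM in the resting and 517 and 478 CPM in the knockout libraries, and Guca2a, guanylin, was at 768, 508 and 2486 CPM in the resting and 11339 and 10867 CPM in the knockout libraries. Both ligands rose (3.28 ± 0.31, adjusted p = 9.75e-05 and 3.15 ± 0.60, adjusted p = 0.00376). Gucy2c, the guanylate cyclase they activate, fell from 168, 179.7 and 209 CPM to 75.3 and 62.2 CPM (-1.43 ± 0.22, adjusted p = 0.00124). Guca2a (adjusted p = 0.0555) with offsets for genomic span did not pass. Guca2a differed by 4.12 on the log2 scale without resting replicate 3 and Guca2b by 2.06 with span offsets.

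The cell cycle lists held changes in both directions. Of the 35 tested replication and licensing genes, 8 rose and 13 fell, with a median log2 difference of -0.362 (-0.705 without resting replicate 3, -0.664 without knockout replicate 1, -0.734 with span offsets); the rises numbered 4 to 8 when 1 library at a time was left out (4 without knockout replicate 1 or knockout replicate 2) and the falls numbered 5 to 13 (5 without knockout replicate 1). All 6 subunits of the replicative helicase, Mcm2 to Mcm7, fell, by 1.51 to 2.02 on the log2 scale. Mcm6 was at 172, 307 and 164 CPM in the resting and 57.97 and 56.5 CPM in the knockout libraries (-1.90 ± 0.33, adjusted p = 0.00231), and resting replicate 2 was the highest library for it. Gmnn, the inhibitor of origin licensing, Tyms, which makes thymidylate, and Pola1, a polymerase subunit, rose 2.83-fold, 2.57-fold and 4.39-fold. Of the 30 tested mitosis genes, 5 rose and 7 fell, with a median log2 difference of -0.282 (0.0464 without resting replicate 1); the rises numbered 1 to 7 when 1 library at a time was left out (1 without knockout replicate 1) and the falls numbered 2 to 9 (2 without knockout replicate 2). Kif20a, a kinesin of the dividing midzone, fell from 64.02, 55.4 and 48.7 CPM to 5.98 and 4.03 CPM (-3.48 ± 0.34, adjusted p = 0.000122), while Birc5, survivin, rose from 212, 146 and 167 CPM to 697 and 565 CPM (1.85 ± 0.27, adjusted p = 0.000898). Mcm2 (adjusted p = 0.0743), Mcm3 (adjusted p = 0.0877), Mcm4 (adjusted p = 0.0649), Mcm5 (adjusted p = 0.0573) and Mcm7 (adjusted p = 0.05) did not pass without knockout replicate 1, nor did Mcm2 (adjusted p = 0.0782), Mcm4 (adjusted p = 0.0597) and Mcm7 (adjusted p = 0.088) without knockout replicate 2. Gmnn (adjusted p = 0.147) and Tyms (adjusted p = 0.33) with library size alone did not pass. Mcm2 differed by -1.25 on the log2 scale without resting replicate 2.

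Among Cdk inhibitors, Cdkn1a, the p53 target p21 that halts the cycle in G1, was at 146, 85.1 and 204 CPM in the resting and 1189 and 775 CPM in the knockout libraries. Its knockout values were several times the highest resting value (2.76 ± 0.46, adjusted p = 0.00188), and Cdkn1b, p27, rose 4.45-fold. Cdkn1c, another Cdk inhibitor, went the other way and was a called fall. Of the 19 tested G1 cyclins and Cdk inhibitors genes, 6 rose and 4 fell (2 and 8 with library size alone, 4 and 5 with span offsets), with a median log2 difference of 0.0176 (0.456 without resting replicate 2); the rises numbered 3 to 6 when 1 library at a time was left out (3 without knockout replicate 1) and the falls numbered 1 to 4 (1 without knockout replicate 2). Of the 30 tested p53 and apoptosis genes, 4 rose and 8 fell, with a median log2 difference of -0.332; the falls numbered 3 to 9 when 1 library at a time was left out (3 without knockout replicate 1). Bax, which opens the mitochondrial outer membrane, rose from 161, 156 and 137 CPM to 510.4 and 473 CPM (1.70 ± 0.19, adjusted p = 0.000249) and the death receptor Tnfrsf10b 9.17-fold. Tnfrsf10b differed by 4.25 on the log2 scale without resting replicate 2.

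Most nuclear genes of the respiratory chain and the ribosome rose. No mitochondrially encoded gene was found in the table, so the subunits encoded there were not measured. Of the 74 tested oxidative phosphorylation genes, 62 rose and 4 fell, with a median log2 difference of 2.69. The members' summed level was 31190 to 39160 CPM in the resting and 165500 and 185900 CPM in the knockout libraries. By complex, 31 of 35 tested subunits of complex I, 7 of 9 of complex III, 10 of 10 of complex IV and 12 of 15 of complex V rose. Cox6a1, of complex IV, was at 1092, 829.96 and 1243 CPM in the resting and 9137 and 8263 CPM in the knockout libraries (3.04 ± 0.23, adjusted p = 5.42e-05). The 4 falls were Ndufs1 of complex I, Sdha and Sdhc of complex II, and Atp5b, the catalytic beta subunit of complex V. Sdha, the flavoprotein of succinate dehydrogenase, was at 501, 358 and 476 CPM in the resting and 171 and 119 CPM in the knockout libraries (-1.62 ± 0.25, adjusted p = 0.00134). The risen members had a median genomic span of 6.82 kb and the fallen ones of 24.7 kb; with offsets for span 61 rose, with a median of 2.14. Atp5b (adjusted p = 0.0946) did not pass without resting replicate 1, nor did Atp5b (adjusted p = 0.0694) without resting replicate 3, nor did Atp5b (adjusted p = 0.169) without knockout replicate 2. Cox6a1 differed by 2.10 on the log2 scale with span offsets.

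Of the 77 tested cytosolic ribosomal protein genes, 65 rose and 0 fell, with a median log2 difference of 2.08. Their summed level was 10650 to 11800 CPM in the resting and 37370 and 43340 CPM in the knockout libraries, and 74 of the 77 lay above every resting library. Rps14 was at 517, 679 and 554 CPM in the resting and 2284 and 3084 CPM in the knockout libraries (2.20 ± 0.28, adjusted p = 0.000396). These genes are short (median span 3.18 kb against 21.8 kb for all tested genes), and with offsets for span 45 of them rose, with a median of 1.09. With library size alone 44 rose. They have many near-identical copies in the genome whose reads were left out as aligning to several places, so single values are uncertain. Rps14 differed by 1.43 on the log2 scale with span offsets.

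**Figure D3:**
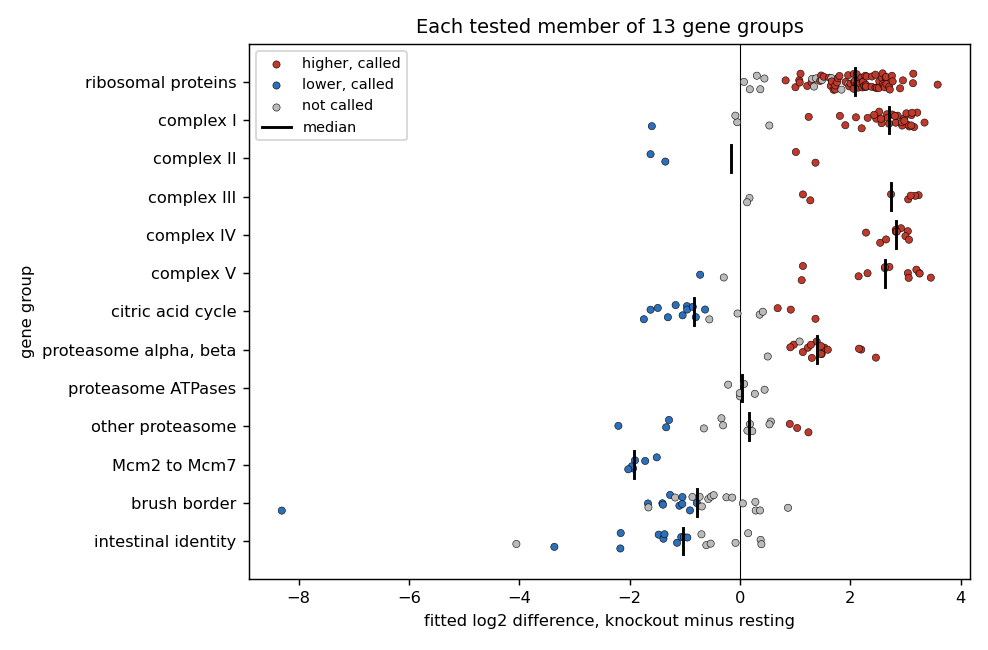
Fitted log2 difference (knockout minus resting) of every tested member of 13 gene groups; each point is a gene, red and blue mark called rises and falls, grey points were not called, and black bars are medians. Complexes I and III to V of the respiratory chain lie mostly between 1 and 3.5, while the citric acid cycle and Mcm2 to Mcm7 lie mostly below 0; the point at the far left of the brush border row is Treh, which had no read in the knockout.

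Enzymes of the citric acid cycle, which feeds the respiratory chain, were more often lower. Of the 18 tested citric acid cycle genes, 3 rose and 11 fell, with a median log2 difference of -0.827; the rises numbered 1 to 3 when 1 library at a time was left out (1 without knockout replicate 1) and the falls numbered 7 to 12 (7 without knockout replicate 2). Sdha, whose values are given above, is also a member of this list and is among its falls. Of the 20 tested glycolysis genes, 1 rose and 4 fell, with a median log2 difference of -0.283 (-0.77 without knockout replicate 1); the rises numbered 1 to 2 when 1 library at a time was left out (2 without resting replicate 3) and the falls numbered 1 to 4 (1 without knockout replicate 2). Hk2, a hexokinase that is induced in proliferating and injured tissue, was at 42.7, 31.1 and 46.7 CPM in the resting and 607 and 629 CPM in the knockout libraries. It had 1 of the 10 smallest adjusted p-values among rises (3.94 ± 0.25, adjusted p = 5.42e-05), while Pfkl, a phosphofructokinase, fell 4.42-fold.

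Proteasome subunits differed by position in the particle. Of the 37 tested proteasome genes, 18 rose and 3 fell (4 and 15 with library size alone), with a median log2 difference of 0.904 (0.401 without knockout replicate 1, 0.432 with span offsets); the rises numbered 11 to 18 when 1 library at a time was left out (11 without knockout replicate 1). Of the alpha and beta subunits that form the core, 15 of 17 rose and none fell, with a median of 1.39. None of the 6 ATPases of the cap was called by edgeR (1 at an unadjusted p under 0.05, none by DESeq2), and of the other 14 regulatory subunits 3 rose and 3 fell. Psmb3, of the core, was at 131, 118 and 111 CPM in the resting and 782 and 545 CPM in the knockout libraries, and Psmd2, of the cap, was at 189, 206 and 169 CPM in the resting and 44.5 and 37.02 CPM in the knockout libraries; the differences were 2.47 ± 0.23, adjusted p = 9.51e-05 and -2.20 ± 0.21, adjusted p = 0.000113.

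Antioxidant enzymes changed in both directions. Of the 21 tested hypoxia and oxidative stress genes, 7 rose and 3 fell (5 and 9 with library size alone), with a median log2 difference of 0.0628. Gpx1, a glutathione peroxidase, was at 852, 926 and 882 CPM in the resting and 5365 and 4995 CPM in the knockout libraries (2.55 ± 0.19, adjusted p = 5.42e-05), and Sod1, the cytosolic superoxide dismutase, was at 52.1, 45.2 and 55.2 CPM in the resting and 291 and 284 CPM in the knockout libraries (2.4998 ± 0.23, adjusted p = 9.25e-05). The 3 falls of the list were catalase and both subunits of the enzyme that starts glutathione synthesis, Gclc (2.56-fold lower) and Gclm (1.95-fold lower). Outside the list, Mt1, a metallothionein that binds zinc and copper, rose from 355, 299 and 339 CPM to 3783 and 4003 CPM (3.56 ± 0.20, adjusted p = 5.42e-05), and Romo1, a small mitochondrial inner membrane protein, from 112, 108 and 104 CPM to 1175 and 1083 CPM; both were among the 10 rises with the smallest adjusted p. Gclm (adjusted p = 0.0542) did not pass without resting replicate 3, nor did Gclm (adjusted p = 0.15) without knockout replicate 2. Gclm (adjusted p = 0.0876) with offsets for genomic span did not pass. Gpx1 differed by 0.79 on the log2 scale with span offsets, Mt1 by 1.91 with span offsets and Romo1 by 1.85 with span offsets.

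Genes known from fetal-like epithelium and repair were mostly higher. Of the 19 tested fetal-like repair genes, 12 rose and 0 fell, with a median log2 difference of 1.91. S100a6, a calcium-binding protein, was at 625, 571 and 1009.9 CPM in the resting and 8208 and 13476 CPM in the knockout libraries. Both knockout libraries had more than 8 times the highest resting value (3.88 ± 0.33, adjusted p = 6.15e-05). S100a11 and S100a10 rose 10.9-fold and 7.74-fold, and Sprr1a, a cornified envelope protein, from 3.11, 11.4 and 23.7 CPM to 657 and 966 CPM. Ly6a, which encodes the surface protein Sca-1 that repairing colon epithelium is known for, was at 492, 38.8 and 403 CPM in the resting and 2889 and 839 CPM in the knockout libraries, with resting replicate 2 far below the other two (2.58 ± 0.84, adjusted p = 0.0402). Several of these proteins, S100a6, S100a11 and Ly6a among them, are also made by stromal and myeloid cells, whose markers are given below. Ly6a (adjusted p = 0.0723) did not pass without resting replicate 3, nor did Ly6a (adjusted p = 0.337) without knockout replicate 1, nor did Ly6a (adjusted p = 0.0539) without regenerating replicate 1, nor did Ly6a (adjusted p = 0.0651) without regenerating replicate 2. Ly6a (adjusted p = 0.14) with library size alone, Ly6a (adjusted p = 0.0544) with the 5 libraries alone and Ly6a (adjusted p = 0.18) with offsets for genomic span did not pass. Ly6a differed by 3.21 on the log2 scale without knockout replicate 2, Sprr1a by 6.81 without resting replicate 3, S100a6 by 2.29 with span offsets and Sprr1a by 4.62 with span offsets.

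In the EGF family some ligands rose and some receptors fell. Of the 12 tested EGF family and ErbB genes, 3 rose and 2 fell (3 and 4 with library size alone), with a median log2 difference of 0.771 (0.45 without resting replicate 1, 1.45 without resting replicate 3, 0.306 without knockout replicate 1). The other 7 members, Egfr and the ligand Tgfa among them, were not called. Areg, amphiregulin, was at 27.2, 110.3 and 89.8 CPM in the resting and 1212 and 1666 CPM in the knockout libraries, and Hbegf was at 111, 371 and 230.3 CPM in the resting and 2332 and 3747 CPM in the knockout libraries. Ereg, epiregulin, went from 0, 0.0584 and 0.408 CPM to 7.25 and 8.71 CPM. These ligands of the EGF receptor rose (4.25 ± 0.50, adjusted p = 0.000308 for Areg, 3.68 ± 0.46, adjusted p = 0.0004 for Hbegf). Erbb3, a receptor of the family that lacks strong kinase activity, fell from 32.9, 19.9 and 22.5 CPM to 2.26 and 3.85 CPM (-3.04 ± 0.42, adjusted p = 0.000679), and its partner Erbb2 fell 2.89-fold. Ereg differed by 7.87 on the log2 scale without resting replicate 3.

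Chemokine genes were mostly higher. Of the 16 tested chemokines, 10 rose and 0 fell, with a median log2 difference of 3.50. Cxcl2, an attractant of neutrophils, was at 0.91, 1.17 and 1.98 CPM in the resting and 159 and 169 CPM in the knockout libraries (6.92 ± 0.38, adjusted p = 5.42e-05). Cxcl1, which acts on the same receptor, went from 2.85, 16.01 and 6.34 CPM to 401 and 230.2 CPM, and Ccl20, which epithelium makes to draw immature dendritic cells and lymphocytes, from 12.8, 7.22 and 9.74 CPM to 109 and 232 CPM (4.10 ± 0.42, adjusted p = 0.000142). Cxcl10, an interferon-induced chemokine, rose 27.6-fold. Of the 32 tested interferon response genes, 4 rose and 2 fell (1 and 11 with library size alone), with a median log2 difference of -0.543 (-0.892 without resting replicate 2, -0.0977 without resting replicate 3); the rises numbered 1 to 5 when 1 library at a time was left out (1 without knockout replicate 1) and the falls numbered 0 to 7 (0 without resting replicate 3, knockout replicate 1 or knockout replicate 2). None of the 8 tested MHC class II genes was called by edgeR or DESeq2 or had an unadjusted p under 0.05, and their summed level overlapped widely (211.3 to 11740 CPM in the resting, 1327 and 6319 CPM in the knockout libraries). Ccl20 differed by 3.45 on the log2 scale without knockout replicate 2, Cxcl1 by 6.10 without resting replicate 2, Ccl20 by 2.88 with span offsets, Cxcl1 by 3.83 with span offsets, Cxcl10 by 3.55 with span offsets and Cxcl2 by 5.58 with span offsets.

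Early response genes moved in part. Of the 23 tested immediate-early genes, 6 rose and 1 fell (2 and 4 with library size alone, 4 and 6 with span offsets), with a median log2 difference of 1.08 (0.718 without resting replicate 1, 0.0739 with span offsets); the rises numbered 5 to 11 when 1 library at a time was left out (11 without resting replicate 2) and the falls numbered 0 to 1 (0 without knockout replicate 1). Ier3, which stress and growth factors induce, rose from 46.5, 128 and 45.5 CPM to 445 and 497 CPM. Klf2, a zinc finger factor, rose from 36.2, 92.7 and 27.4 CPM to 266 and 339 CPM, and for both genes resting replicate 2 was the highest resting library. Hspb1, a small heat shock protein, rose from 1.56, 2.81 and 1.04 CPM to 26.5 and 27.9 CPM (3.91 ± 0.57, adjusted p = 0.000933). Of the 13 tested heat shock genes, 3 rose and 3 fell, with a median log2 difference of 0.186 (0.614 without resting replicate 2, -0.222 without resting replicate 3, -0.62 with span offsets); the falls numbered 1 to 5 when 1 library at a time was left out (1 without resting replicate 1, resting replicate 2, knockout replicate 1 or knockout replicate 2). Ier3 (adjusted p = 0.136) with offsets for genomic span did not pass. Ier3 differed by 3.36 on the log2 scale without resting replicate 2, Klf2 by 3.25 without resting replicate 2, Hspb1 by 2.39 with span offsets and Klf2 by 1.40 with span offsets.

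Junction genes changed by member. Of the 18 tested claudins and tight junctions, 4 rose and 7 fell (1 and 5 with span offsets), with a median log2 difference of -0.396; the falls numbered 4 to 7 when 1 library at a time was left out (4 without resting replicate 1, resting replicate 3, knockout replicate 1 or knockout replicate 2). Cldn2, a pore-forming claudin of the crypt, fell from 582, 533 and 409.98 CPM to 122 and 116 CPM (-2.10 ± 0.23, adjusted p = 0.000201), and Cldn3, a sealing claudin, rose from 776, 844 and 929 CPM to 3332 and 3245 CPM (1.95 ± 0.22, adjusted p = 0.000229). Of the 14 tested keratins and desmosomes, 3 rose and 3 fell (1 and 3 with span offsets), with a median log2 difference of 0.0342; the rises numbered 1 to 3 when 1 library at a time was left out (1 without resting replicate 1, knockout replicate 1, knockout replicate 2, regenerating replicate 1 or regenerating replicate 2). Jup, plakoglobin of desmosomes, fell 6.59-fold. Krt19, a keratin of simple epithelium, rose 1.97-fold, with the opposite sign under library size alone. Cldn3 (adjusted p = 0.552) and Krt19 (adjusted p = 0.159) with offsets for genomic span and Krt19 (adjusted p = 0.989) with library size alone did not pass.

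Growth and signalling lists beyond these had few calls or calls in both directions. Of the 13 tested BMP pathway genes, 2 rose and 1 fell (0 and 2 with library size alone), with a median log2 difference of 0.862 (0.411 without knockout replicate 1, 0.198 without knockout replicate 2); the rises numbered 0 to 3 when 1 library at a time was left out (0 without resting replicate 1, knockout replicate 1 or regenerating replicate 2). Smad1, which carries the BMP signal to the nucleus, fell 2.92-fold. Of the 13 tested Myc network genes, 2 rose and 4 fell, with a median log2 difference of -0.0165 (-0.366 without resting replicate 1, -0.635 without knockout replicate 1); the rises numbered 1 to 2 when 1 library at a time was left out (1 without knockout replicate 1) and the falls numbered 2 to 4 (2 without resting replicate 1, resting replicate 3, knockout replicate 1 or knockout replicate 2). Mxd3, a factor that opposes Myc, rose 3.54-fold, beside the falls of Myc and Mycl given above. Of the 18 tested YAP and TEAD genes, 1 rose and 1 fell, with a median log2 difference of -0.296; the rises numbered 0 to 3 when 1 library at a time was left out (0 without knockout replicate 1, knockout replicate 2, regenerating replicate 1 or regenerating replicate 2) and the falls numbered 0 to 2 (0 without knockout replicate 1 or knockout replicate 2). Nf2, merlin, which restrains YAP, fell 2.24-fold. Of the 15 tested interleukin 11 and gp130 genes, 0 rose and 2 fell, with a median log2 difference of -0.286 (0.261 without knockout replicate 1, -0.942 without knockout replicate 2); the rises numbered 0 to 1 when 1 library at a time was left out (1 without resting replicate 2) and the falls numbered 1 to 3 (1 without resting replicate 1, knockout replicate 1, knockout replicate 2 or regenerating replicate 1). Stat3, the factor below gp130, fell from 101, 68.7 and 88.5 CPM to 36.6 and 36.7 CPM (-1.23 ± 0.23, adjusted p = 0.00367). Of the 22 tested antimicrobial and acute-phase genes, 2 rose and 3 fell, with a median log2 difference of 0.733 (1.18 without resting replicate 1, 0.169 without resting replicate 2, -0.118 without knockout replicate 1, 1.30 without knockout replicate 2, 0.243 with span offsets); the rises numbered 0 to 4 when 1 library at a time was left out (0 without knockout replicate 1). Duox2, the oxidase that epithelium uses against microbes, fell 9.08-fold, and Nlrp6, an inflammasome sensor of colon epithelium, 3.75-fold. Nf2 (adjusted p = 0.0617) and Smad1 (adjusted p = 0.0544) did not pass without knockout replicate 1, nor did Nf2 (adjusted p = 0.0658) without knockout replicate 2. Mxd3 (adjusted p = 0.0756) with library size alone did not pass. Duox2 differed by -4.11 on the log2 scale without knockout replicate 2, Nlrp6 by -2.75 without knockout replicate 1 and Mxd3 by 1.19 with span offsets.

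Biosynthetic and nuclear lists held both directions. Of the 22 tested cholesterol synthesis genes, 3 rose and 5 fell (4 and 2 with span offsets), with a median log2 difference of -0.218; the falls numbered 2 to 5 when 1 library at a time was left out (2 without knockout replicate 2). Srebf2, the factor that switches this pathway on, fell from 150.5, 162 and 122 CPM to 44.1 and 47.9 CPM (-1.65 ± 0.22, adjusted p = 0.000493), whereas Pmvk, a mevalonate pathway kinase, rose 4.71-fold. Of the 29 tested ribosome biogenesis genes, 8 rose and 10 fell (5 and 9 with span offsets), with a median log2 difference of -0.812 (-0.382 without resting replicate 2, -0.416 without knockout replicate 1, -0.498 with span offsets); the rises numbered 5 to 9 when 1 library at a time was left out (5 without knockout replicate 1 or knockout replicate 2) and the falls numbered 4 to 10 (4 without knockout replicate 2). Bop1, needed to process the large subunit's RNA, fell 4.52-fold, and Npm1, nucleophosmin of the nucleolus, rose 2.12-fold. Of the 30 tested splicing factors, 7 rose and 11 fell, with a median log2 difference of -0.166; the rises numbered 4 to 7 when 1 library at a time was left out (4 without knockout replicate 1) and the falls numbered 3 to 11 (3 without knockout replicate 2). Snrpe, a core protein of the spliceosome, rose from 87.7, 78.03 and 69.1 CPM to 449.7 and 427 CPM while Srsf4, a splicing regulator, fell 5.597-fold. Of the 30 tested chromatin regulators, 3 rose and 5 fell (4 and 2 with span offsets), with a median log2 difference of -0.0299; the rises numbered 3 to 6 when 1 library at a time was left out (6 without resting replicate 3) and the falls numbered 1 to 5 (1 without knockout replicate 1). Hdac3, a histone deacetylase, fell 3.44-fold, and Kdm6b, which removes methyl groups from histone H3, rose 5.43-fold. Of the 23 tested Hox genes, 4 rose and 1 fell (1 and 4 with library size alone, 0 and 1 with span offsets), with a median log2 difference of 0.372 (0.0638 without resting replicate 1, -0.366 with span offsets); the rises numbered 2 to 4 when 1 library at a time was left out (2 without resting replicate 3 or knockout replicate 2) and the falls numbered 0 to 3 (0 without resting replicate 1, resting replicate 3, regenerating replicate 1 or regenerating replicate 2). Hoxa7 rose from 40.4, 28.8 and 43.97 CPM to 165 and 105 CPM. Of the 19 tested integrins and laminins, 1 rose and 3 fell (1 and 1 with span offsets), with a median log2 difference of -0.114 (-0.473 without resting replicate 2, -0.514 without knockout replicate 2); the rises numbered 1 to 2 when 1 library at a time was left out (2 without knockout replicate 1). Itga3, an integrin that binds laminin, fell 2.16-fold. Itga3 (adjusted p = 0.091) did not pass without knockout replicate 2. Hoxa7 (adjusted p = 0.0648) and Itga3 (adjusted p = 0.084) with offsets for genomic span and Npm1 (adjusted p = 0.722) with library size alone did not pass.

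**Figure D4:**
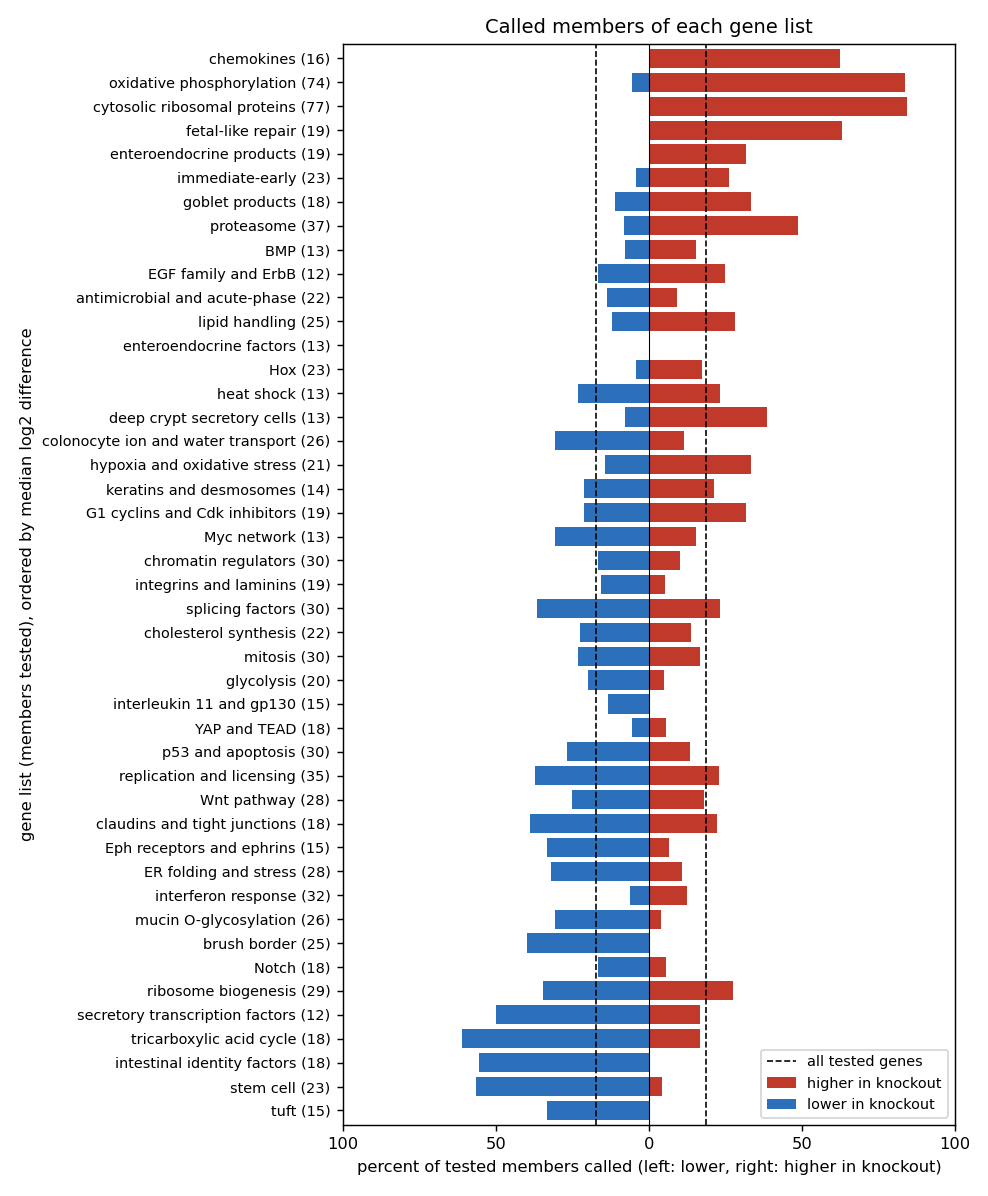
Percent of tested members called higher (red, right) or lower (blue, left) in the knockout for each gene list with at least 12 tested members, ordered by median log2 difference; dashed lines mark the percent of all tested genes called (18.8% higher, 17.4% lower). Ribosomal proteins (84.4% higher), oxidative phosphorylation (83.8%), fetal-like repair (63.2%) and chemokines (62.5%) reach farthest to the right, and the citric acid cycle (61.1% lower), stem cell (56.5%) and intestinal identity (55.6%) lists farthest to the left.

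The largest changes included genes of other cell types. Of the 9 tested neutrophil markers, 9 rose and 0 fell, with a median log2 difference of 11. Being at or near 0 in the resting libraries, these genes passed the filter on low counts through other libraries. A rise was then the only call open to them, so the count adds nothing to the levels. The untested members in the table stayed at or under 0.641 CPM in the resting and knockout libraries. Their summed level was 0, 0.4397 and 0.7338 CPM in the resting and 1104 and 642.1 CPM in the knockout libraries, and 9 of the 12 markers in the table had no resting read. S100a8, a calprotectin subunit of neutrophils, was at 0, 0 and 0.0314 CPM in the resting and 375 and 244 CPM in the knockout libraries. On summed reads it was 31000-fold higher (95% counting interval 5570 to 1230000). Camp, the cathelicidin of neutrophil granules, and Ngp, another granule protein, had no resting read and were at 123 and 74.9 CPM and at 206 and 98.96 CPM, at least 3300-fold and 5090-fold higher. Elane, neutrophil elastase, was at least 708-fold higher. At such bounds the list's median log2 difference was 9.47. The resting reads of S100a8 were in resting replicate 3 alone, without which the resting group has none and the fitted difference of 15.97 depends on the prior count.

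Most stromal markers rose too. Of the 13 tested stromal markers, 8 rose and 0 fell, with a median log2 difference of 6.80; the rises numbered 5 to 9 when 1 library at a time was left out (5 without knockout replicate 2). The summed level was 7.043 to 14.91 CPM in the resting and 151.6 and 237.5 CPM in the knockout libraries. Dcn, the matrix proteoglycan decorin, was at 0, 0 and 2.104 CPM in the resting and 91.8 and 161 CPM in the knockout libraries, and Lum, lumican, had no resting read and was at 8.88 and 19.2 CPM, at least 468-fold higher. With genes at 0 set to their bound, the median was 5.77. Those 5 genes had no resting read, so a rise was the only call open to them. Macrophage and dendritic cell markers summed to 127.8 to 358.4 CPM in the resting and 386.6 and 678.7 CPM in the knockout libraries, and 2 of 9 tested rose. Cd14 made up most of the resting sums (314.1, 126.7 and 276.9 CPM). In knockout replicates 1 and 2 Cd14 was at 382.7 and 280.6 CPM, and Lyz2 at 276 and 89.53 CPM. Neither of these was called. The 2 rises, Csf1r and Fcgr1, had no resting read and 12 and 20 knockout reads. Lymphocyte markers summed to 2.922 to 45.17 CPM and 21.9 and 43.66 CPM, overlapping, and none of 13 was called by edgeR (1 at an unadjusted p under 0.05, 1 risen by DESeq2). Endothelial markers summed to 2.671 to 13.18 CPM and 18.33 and 25.36 CPM, with 1 of 6 risen. Mast cell and eosinophil markers summed to 0 to 5.12 CPM and 11.55 and 13.77 CPM (1 of 3 tested rose), neural markers to 0.3215 to 2.583 CPM and 0.3623 and 1.1 CPM, and red cell markers to 0.2055 to 0.9737 CPM and 0.09057 and 0.2749 CPM, with none of the tested members of either called by edgeR or DESeq2 or at an unadjusted p under 0.05. The part that such RNA has in the rises of chemokine, repair and S100 genes was not tested. All resting reads of Dcn were in resting replicate 3, and its log2 difference was 6.92 without either of the other resting libraries.

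**Figure D5:**
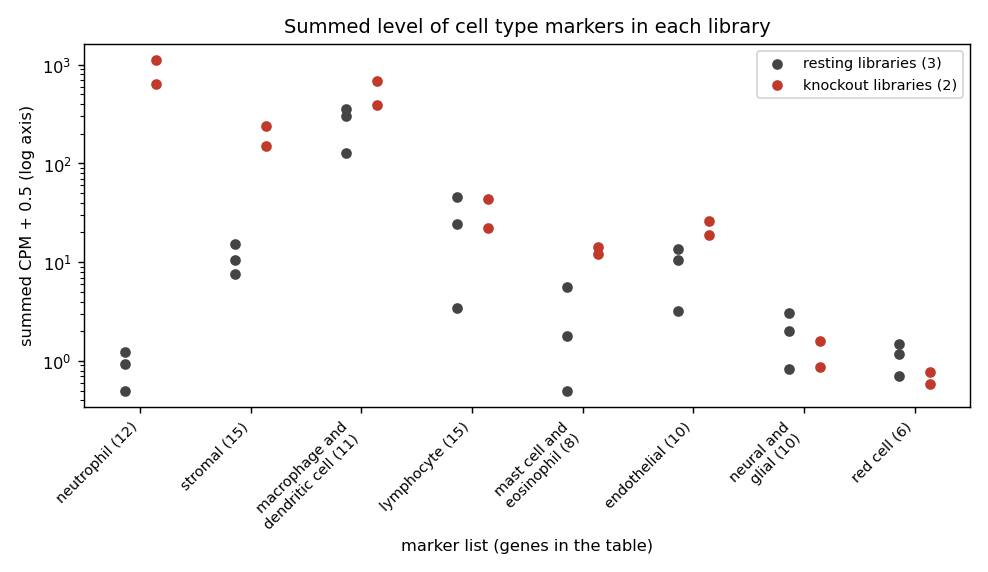
Summed level of the marker genes of 8 cell types in each library, in CPM + 0.5 on a log axis; grey points are the 3 resting and red points the 2 knockout libraries, with the number of genes in the table in brackets. Neutrophil sums are 642.1 and 1104 CPM in the knockout against at most 0.7338 CPM in the resting libraries, stromal sums differ by about an order of magnitude, and lymphocyte sums overlap.

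Among the falls of the whole table with the smallest adjusted p were genes of varied function. Ncstn, nicastrin of the gamma-secretase that cleaves Notch, was at 184, 158 and 207 CPM in the resting and 26.5 and 22.8 CPM in the knockout libraries (-2.89 ± 0.23, adjusted p = 5.47e-05). E2f4, a cell cycle repressor of the E2f family, was at 144, 138 and 97.8 CPM in the resting and 13.5 and 14.9 CPM in the knockout libraries (-3.15 ± 0.26, adjusted p = 6e-05). Aldh1b1, a mitochondrial aldehyde dehydrogenase of crypt cells, was at 1030.2, 1007 and 759 CPM in the resting and 137 and 106 CPM in the knockout libraries (-2.94 ± 0.25, adjusted p = 6.7e-05). Of genes at 10 CPM or more, Osr2, a zinc finger factor, and Angpt2, a ligand of the Tie2 receptor, were among the 12 largest falls, going from 64.3, 43.6 and 62.98 CPM to 0.906 and 0.367 CPM and from 10.2, 12.5 and 7.76 CPM to 0.0906 and 0.183 CPM. On summed reads Angpt2 was 74.6-fold lower (95% counting interval 25.5 to 362). Osr2 differed by -7.28 on the log2 scale without knockout replicate 1.

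The regenerating libraries, not compared here, place some of these levels. Pyy was at 20.04 and 4.22 CPM in them, S100a6 at 1015 and 1211 CPM, Ephb3 at 76.7 and 97.97 CPM, Cxcl2 at 8.01 and 5.99 CPM and Lgr5 at 1.79 and 7.18 CPM. The neutrophil markers summed to 1.136 and 2.287 CPM there. Tested enteroendocrine products summed to 9294 to 14390 CPM there, against 443 to 958.9 CPM in the resting libraries. Deep crypt secretory cell genes summed to 32440 to 50880 CPM (resting 3145 to 5990 CPM). Chemokines summed to 5199 to 5936 CPM (resting 353.7 to 737 CPM). These lists share members such as Reg4 and Ccl6. Tuft cell genes (11.36 to 19.91 CPM) were below the resting range, and oxidative phosphorylation genes (34580 to 38960 CPM) within it. No test was made between those libraries and the knockout.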

How the data were processed

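RNA from sorted colon epithelial cells was turned into libraries with a low-input SMARTer kit, per the labels' protocols. The authors deposited a table of raw read counts per gene for the bulk libraries. STAR (2.5.3a) and HTSeq are named for the alignment and counting, with the builds GRCm38 and mm10, and DESeq2 is among the tools listed, per the submitters' processing notes. The strand setting and annotation are not given in the sources used here. Of 24062 genes, 23873 matched RefSeq (GRCm38.p6) by symbol for position and span. Of the 160 named genes with a position, 15 overlap another coding gene, so that their reads may be shared and their values are uncertain: Angpt2, Bop1, Cdx1, Cxcl10, Ddit3, Epha1, Erbb2, Kif20a, Lgr5, Mcm7, Mxd3, Ncstn, Romo1, Tcf7 and Vil1. Cd14, Cdkn1c, Csf1r, Ern2, Fcgr1, Kit, Lyz2 and Tmsb10 were left out of this count.

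From these counts, edgeR 4.0.16 (R 4.3.3, limma 3.58.1) was run on the 7 adult libraries: filterByExpr with a minimum count of 10, TMM scaling, group as the only term, and the two-sided quasi-likelihood F test. P-values were adjusted by the Benjamini-Hochberg method across all tested genes, and a gene was called under 0.05. The standard error is the log2 difference divided by the square root of F. Where a group had no read, its fold was taken against 3 counts as a lower bound. Floors and 95% counting intervals cover counting error only, since the reads carry no molecular identifiers. The 5 rows of the table that name no gene (reads outside genes, ambiguous, aligned to several places and the like) stayed out of library sizes and tests. The common biological coefficient of variation was 0.513. No pair of replicates agreed within sampling noise. Without molecular identifiers this cannot tell repeat libraries of 1 cell pool from separate samples. Each library was counted as 1 sample. The code was tested on simulated counts. Alternatives were other scalings, DESeq2 1.42.0, other filters and sample sets, a replicate block, offsets for genomic span, and leaving out each library.

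Named genes are Ascl2, Lgr5, the 12 largest rises and falls of at least 10 CPM without overlap, the 10 smallest adjusted p-values in each direction, and, in each of 57 gene lists, up to 3 called rises and falls of smallest adjusted p, the member with most CPM and any member of a short list. The list of mitochondrially encoded genes had no member in the table. The members and lists were chosen with earlier results of these data known. Atp5b, Axin2, Cd44, Cdx2, Cox6a1, Efnb1, Ephb2, Galnt1, Gcg, Hnf4a, Ly6a, Mcm2 to Mcm5, Mcm7, Muc2, Notch1, Prom1, Ptpro, Rnf43, Sprr1a, Tcf7, Treh, Vil1, Xist and Ddx3y fall outside that rule and were chosen after their values were seen. The embryonic hindgut, single-cell and ChIP-seq data were not used here.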

Additional observations from a re-analysis of the deposited data

Results flagged for a closer look

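Reads that could not be assigned to 1 gene, which entered no test of genes, differed between the groups. Reads aligned to several places were 51.17% and 51.44% of the knockout reads, against 39.11% to 40.17% of the resting reads. Reads outside annotated genes were 7.71% and 9.77% in the knockout, against 5.77% to 6.68% in the resting libraries. On both measures each knockout library lay above every resting one. These values were singled out because they rose above the control samples in rows of the table outside the gene counts. The regenerating libraries were at 36.41% and 38.57% for reads aligned to several places and at 6.9% and 8.94% for reads outside genes, so that the second measure overlapped between them and the knockout while the first did not.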

How the results depend on the processing

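The number of called genes stayed within 1.5 times the reported 5039 under each of the 15 alternatives, from 3413 without knockout replicate 1 to 6561 with library size alone. Other values were 4994 and 4965 with RLE and upper quartile factors, 5676 with DESeq2, 4424 with the resting and knockout libraries only, 5206 without the filter on low counts and 4474 with offsets for genomic span. Of the 147 named genes that were called, 119 kept their call without each library in turn and 105 under all alternatives run. Cdkn1c, Csf1r, Ern2, Fcgr1, Kit and Tmsb10, also called, were left out of this count.

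The log2 difference changed sign for Hes1 (-0.0139 with library size alone and -0.215 with span offsets), Id3 (-0.112 with span offsets), Krt19 (-0.00443 with library size alone) and Epcam (-0.60 with library size alone). Among genes never called, Axin2 was at 0.063 with span offsets and ran from -0.84 to 0.14 over the leave-outs, being 0.11 without resting replicate 2. Egfr was at 0.00619 with the replicate block and ran from -0.67 to 0.31 over the leave-outs. Ddx3y was at -0.385 and Xist at -0.329 with library size alone. Over the leave-outs Ddx3y ran from -4.25 to 1.52 (-0.0237 without resting replicate 1) and Xist from -7.37 to 1.67. The causes were not tested.

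With the replicate number as a block, 4353 genes were called, 4090 of them as before. The deviations of same-numbered resting and knockout libraries correlated at 0.0997 and 0.0969, so the numbers were not taken to pair samples.

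With 2 knockout libraries, leaving out either leaves a lone library that is assumed to vary like the other groups. Genes that failed the filter on low counts were not tested, and no read in a group shows only a level under 3 counts. Sorting gate, Lgr5 allele, reporter, tamoxifen and genotype differ together, and neutrophil and stromal RNA was present in the knockout libraries.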
